A study of Mus musculus with 18 samples.

Results

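Expression of 9 inhibitory receptor genes and of Entpd1, which encodes the ectonucleotidase CD39, was compared between naive and memory-phenotype mouse CD8 T cells with and without functional Dock2. The 10 genes were Cd160, Btla, Cd101, Lair1, Tigit, Pdcd1, Lag3, Havcr2, Ctla4 and Entpd1. They were picked by gene symbol, with earlier results of these data known, and each symbol was found once among the 46983 genes of the deposited table. The table gives a normalized expected count per gene and library, that is, estimated reads that the authors scaled between libraries. Testing was limited to the 9437 genes that reached a value of 10 in 4 or more of the 18 libraries, and 6 of the 10 (Cd160, Cd101, Lair1, Entpd1, Tigit and Btla) were among them. Pdcd1, Lag3, Havcr2 and Ctla4 stayed below that filter and are described by their values.

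The 18 RNA sequencing libraries formed 4 groups. Wild-type mice gave 4 libraries of naive cells, labelled CD44lo for low surface CD44, and 4 of memory cells, labelled CD44hi. Another 5 naive and 5 memory libraries came from Dock2-Hsd/Hsd (Dock2-/-) mice, which carry the Hsd allele on both chromosomes and are called Dock2-deficient here. Dock2 is an exchange factor that activates the small GTPase Rac in blood cells and links receptors to the actin cytoskeleton. No library was treated, and the strain given was C57BL/6J throughout. In the description field, C57L6NHsd stood for the Dock2-deficient samples and C57BL6J for wild type, so substrain and Dock2 genotype cannot be told apart. The sources used here gave neither tissue of origin nor age, nor whether libraries of a group came from separate mice, so p-values measure the spread between these libraries, which may be technical in part.

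Inhibitory receptors are surface proteins that dampen signals from the T cell receptor. Many carry tyrosine motifs in their cytoplasmic tails that recruit the phosphatases SHP-1 and SHP-2, whereas others compete with stimulatory receptors for a shared ligand. They are best known from exhausted T cells in chronic infection and tumours, and several are also carried by resting memory cells. CD39 acts on a different substrate: it removes phosphates from extracellular ATP and ADP, and the AMP it leaves is turned by CD73, the product of Nt5e, into adenosine, which restrains T cells through the adenosine receptor encoded by Adora2a.

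Library depth was inferred by taking the most frequent value above 0 in each library as 1 read. It came to 2215987 to 8257768 expected reads, of which the ribosomal RNA gene Rn18s-rs5 took 37.0% to 69.4%. That left 850659 to 2830470 reads for all other genes, and 3 reads, the most that a value of 0 allows, were worth 1.54 to 5.42 on the scale of the table. Values of the low genes below therefore rest on few reads, and intervals of this kind cover counting error only. As a check of the labels, Dock2 RNA was present throughout. It was at 399.7 to 844 in memory libraries of wild type and at 61.0 to 279.6 in those of Dock2-deficient mice, which did not overlap, and at 287.5 to 514 and 171 to 373 in the naive libraries, which did. All 10 markers of CD8 T cells that were checked, Cd8a, Cd8b1 and the CD3 chains among them, were above 0 in every library. By Xist and Y-linked genes, wild-type libraries all read as female (8 of 8), whereas Dock2-deficient ones read as male apart from library 1 of each group (4 of 5 and 4 of 5), so sex and genotype were largely confounded.

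Memory cells of both genotypes held more RNA of several of these genes than naive cells did. In wild type, Cd160 rose 4.29-fold and Cd101 8.14-fold in the ratio of group means. In Dock2-deficient mice, Lair1 rose 3.05-fold and Entpd1 16.3-fold. None of the 6 tested members fell in either comparison. These calls were made with limma on log2(value + 1), with p-values adjusted over all 9437 genes and a threshold of 0.05. In wild type 2 of the 6 tested members rose, where 1.88% of all genes rose and 2.52% changed in either direction. In Dock2-deficient mice 2 of 6 rose, where 1.77% of all genes rose and 2.82% changed in either direction. Counted by overlap, 3 of 6 members had every wild-type memory library above every naive one (Cd160, Cd101 and Tigit; 4.99% of all genes) and 3 of 6 did so in Dock2-deficient mice (Cd101, Lair1 and Entpd1; 2.35%). The median log2 fold change of the 6 members was 1.71 in wild type and 1.41 in Dock2-deficient mice, beside -0.02 and -0.01 over all genes tested. Cd101 and Entpd1 reached the filter value of 10 in memory libraries alone, and Tigit outside them only in Dock2-deficient naive library 2. They were thus tested through their memory values, and the members were chosen with earlier results of these data known. The shares and medians describe these 6 genes and are no test of them as a set. Whether a member's change differed between the genotypes is a separate test, given below, which none of the 6 passed.

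**Figure D1:**
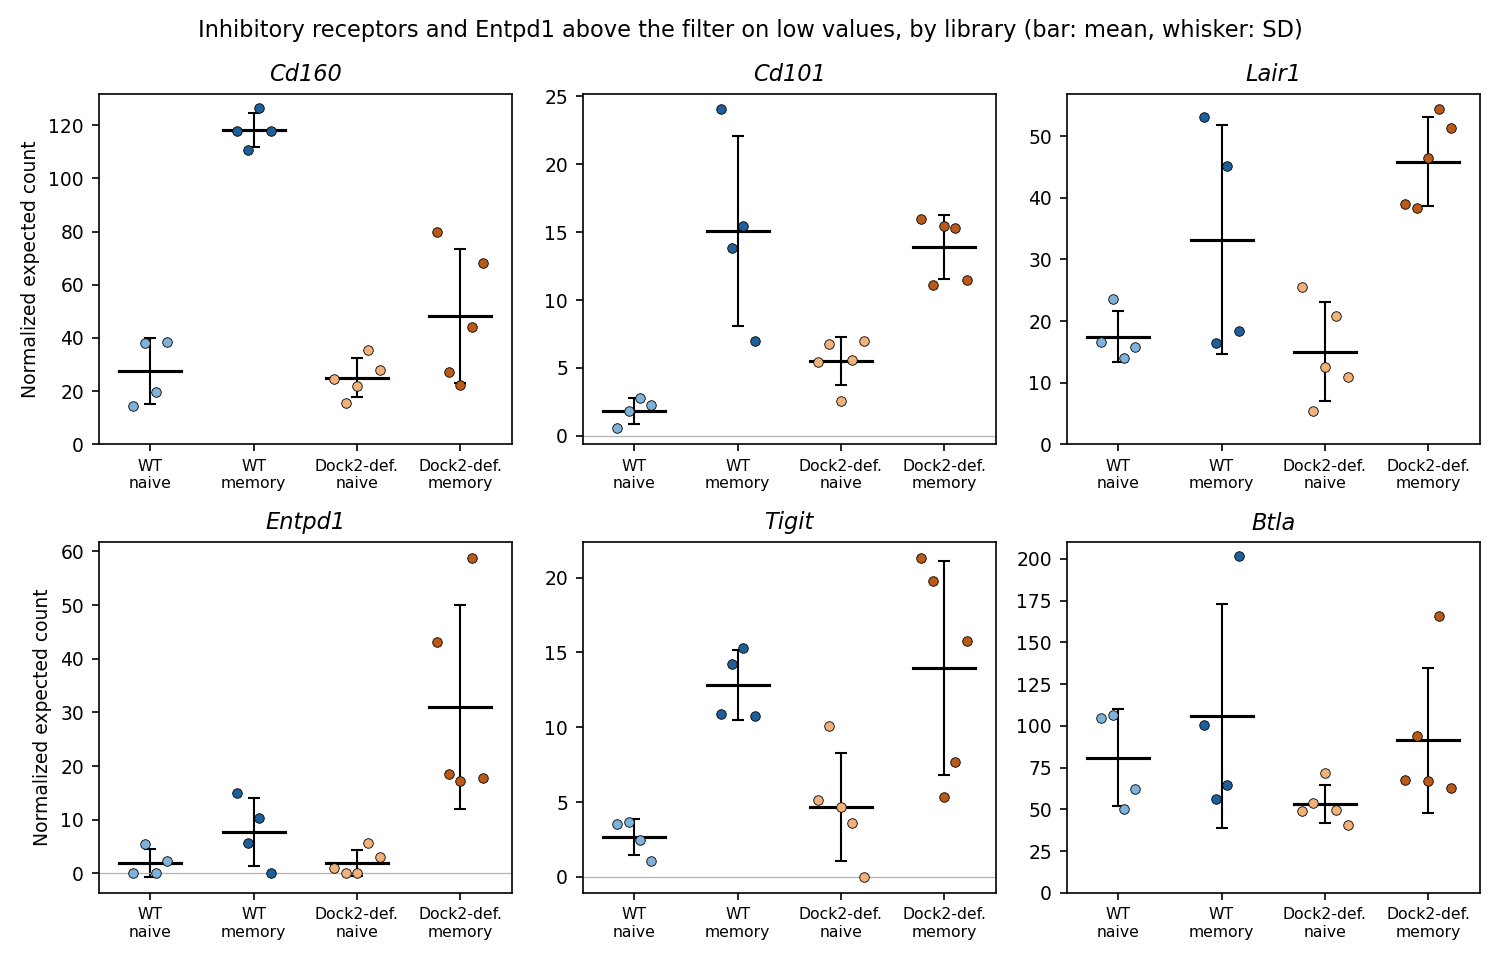
Normalized expected count (vertical axis, linear) of the 6 tested genes in each library of the 4 groups; each point is a library, the bar the group mean and the whisker the SD. The 4 wild-type memory libraries stand between 111 and 126 for Cd160, above every other library, whereas for Entpd1 the 5 Dock2-deficient memory libraries stand between 17.2 and 58.8, above every other library.

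The sequence before the annotated start of the 4 genes that passed the test in either memory comparison is shown here, since these are the genes on which the comparison of naive and memory cells rests. Each line gives the 250 bases upstream of the RefSeq transcript start in build GRCm38.p6, read 5′ to 3′ on the gene's strand. The windows are chr3:96829352-96829601 (minus strand) for Cd160, chr3:101029554-101029803 (minus) for Cd101, chr7:4063205-4063454 (minus) for Lair1 and chr19:40612116-40612365 (plus) for Entpd1. Capitals mark matches, on either strand, to TCACAC, the core of the site of T-box factors such as T-bet and Eomes, and to TGTGGT, a site of RUNX factors; the reverse complements read GTGTGA and ACCACA.
Cd160: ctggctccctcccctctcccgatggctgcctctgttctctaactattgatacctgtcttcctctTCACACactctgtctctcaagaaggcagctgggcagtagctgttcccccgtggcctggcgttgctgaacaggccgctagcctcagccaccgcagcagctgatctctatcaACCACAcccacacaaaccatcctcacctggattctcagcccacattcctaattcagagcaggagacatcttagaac
Cd101: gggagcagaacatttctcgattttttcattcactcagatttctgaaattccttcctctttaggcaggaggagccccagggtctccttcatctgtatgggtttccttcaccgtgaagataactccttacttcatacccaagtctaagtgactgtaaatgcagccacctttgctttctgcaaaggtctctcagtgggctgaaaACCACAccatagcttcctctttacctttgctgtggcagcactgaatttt
Lair1: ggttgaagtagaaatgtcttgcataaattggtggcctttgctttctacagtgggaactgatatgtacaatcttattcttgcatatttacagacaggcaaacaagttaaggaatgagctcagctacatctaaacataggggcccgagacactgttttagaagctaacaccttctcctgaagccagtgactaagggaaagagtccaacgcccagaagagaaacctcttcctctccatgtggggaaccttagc
Entpd1: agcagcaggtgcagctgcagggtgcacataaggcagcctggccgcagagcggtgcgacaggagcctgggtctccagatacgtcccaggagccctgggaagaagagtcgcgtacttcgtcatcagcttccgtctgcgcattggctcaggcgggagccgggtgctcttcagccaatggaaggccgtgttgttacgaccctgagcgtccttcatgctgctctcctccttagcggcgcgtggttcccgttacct

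Cd160 held both motifs in this window, at 186 and 76 bases before the start, Cd101 held the RUNX letters alone at 49 bases before it, and neither motif was found in the windows of Lair1 and Entpd1. A second annotated start of Cd160 (chr3:96814522-96814771) also held both, and a second start of Entpd1 (chr19:40659520-40659769) held neither. Among the 9 members with a window in the table, 2 held the T-box letters (Cd160 and Btla) and 5 the RUNX letters (Cd160, Cd101, Tigit, Havcr2 and Btla). Over all 32851 windows of this length, 12.3% held TCACAC and 14% held TGTGGT. Of 4 further motifs searched on both strands, CCGGAAG (ETS; 6.91% of windows) was in no member, TGANTCA (AP-1; 6.75%) in 1 (Havcr2), CAGGTG (an E-box; 17.2%) in 3 (Cd160, Entpd1 and Ctla4) and TTTTCC (NFAT; 20.4%) in 3 (Entpd1 at the second start, Tigit and Ctla4). A match describes letters and not a bound site, and factor binding was not measured.

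Cd160 and Btla encode receptors that share the ligand HVEM, the product of Tnfrsf14. CD160 is held in the membrane by a lipid anchor and also binds MHC class I molecules, whereas BTLA spans the membrane and carries inhibitory tyrosine motifs. Cd160 (ENSMUSG00000038304) lies on chromosome 3, 96798763 to 96829351, minus strand, in the GENCODE M21 annotation of mm10. It overlaps Pdzk1 on the opposite strand by 68 exon bases, and since the libraries do not mark strand such reads cannot be assigned, but Pdzk1 itself reached at most 1.88 in any library.

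In wild-type naive libraries 1 to 4, Cd160 was at 14.3, 38.0, 19.6 and 38.4, and in wild-type memory libraries at 118, 111, 126 and 118. The memory values were both high and close together, with means of 118 ± 6.34 against 27.6 ± 12.5 (SD, n = 4 each). The limma log2 fold change was 2.18 ± 0.38 (SE; adjusted p = 0.00158), and the call was kept in all 8 fits that left out 1 library of these groups (adjusted p up to 0.00834). Dock2-deficient naive libraries, at 24.5, 15.6, 22.0, 35.3 and 27.9, fell in the wild-type naive range. In Dock2-deficient memory libraries 1 to 5 Cd160 was at 79.9, 27.2, 22.3, 44.3 and 68.1, so libraries 2 and 3 lay among the naive values while libraries 1, 4 and 5 lay above them. The means were 48.4 ± 25.1 and 25.1 ± 7.27 (SD, n = 5 each), and the difference of 0.80 ± 0.34 on the log2 scale did not pass the limma test (adjusted p = 0.304).

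Btla (ENSMUSG00000052013; chromosome 16, 45224315 to 45257670, plus strand) was expressed in every library and showed no such contrast. It was at 105, 107, 50.3 and 62.1 in wild-type naive and at 100.3, 56.0, 64.5 and 202 in wild-type memory libraries. Library 4, at 202, alone set the memory mean above the naive one: the log2 fold change was 0.26 ± 0.37 with it and -0.11 ± 0.34 without it, and neither passed the limma test (adjusted p = 0.869 and 0.987). Naive libraries of Dock2-deficient mice were at 49.1, 53.7, 71.7, 49.7 and 40.8, and their memory libraries at 67.5, 93.9, 67.0, 166 and 62.8. Their ranges overlapped, and the log2 difference, 0.70 ± 0.33, did not pass (adjusted p = 0.375). The shared ligand gene Tnfrsf14 was at 118 ± 53.0 and 71.7 ± 15.8 in wild-type naive and memory cells (SD, n = 4 each) and at 115 ± 33.9 and 60.5 ± 24.0 in Dock2-deficient ones (SD, n = 5 each). Its log2 fold changes between memory and naive cells, -0.65 ± 0.33 and -0.96 ± 0.30, did not pass (adjusted p = 0.463 and 0.104).

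Cd101 and Lair1 encode immunoglobulin-like receptors. CD101 marks terminally exhausted and some tissue-resident CD8 T cells, and LAIR-1 is an inhibitory receptor for collagens. Cd101 (ENSMUSG00000086564; chromosome 3, 100993529 to 101029556, minus strand) was close to the level of single reads in wild-type naive cells, at 0.551, 1.81, 2.79 and 2.26, which corresponded to 1 or 2 reads per library. Wild-type memory libraries held 24.0, 13.9, 15.5 and 6.99, from 8 to 29 reads, all above the naive values. The log2 fold change was 2.46 ± 0.48 (limma adjusted p = 0.00362), with means of 15.1 ± 7.01 and 1.85 ± 0.957 (SD, n = 4 each), and all 8 fits without 1 library kept the call (adjusted p up to 0.0250). It was lost when the fit held the 2 groups alone (adjusted p = 0.0672). In Dock2-deficient mice Cd101 was at 5.46, 6.79, 2.56, 5.61 and 6.97 in naive and 16.0, 11.1, 15.5, 15.3 and 11.5 in memory libraries. Every memory library again lay above every naive one, but the difference of 1.24 ± 0.43 did not pass (adjusted p = 0.162), except without the variance trend (adjusted p = 0.0421).

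Lair1 (ENSMUSG00000055541; chromosome 7, 4003402 to 4063204, minus strand) passed the test in Dock2-deficient mice and not in wild type. In wild type it was at 16.5, 23.5, 13.97 and 15.8 in naive and at 53.1, 16.4, 45.1 and 18.4 in memory libraries. The memory libraries fell into a high and a low pair, the low pair within the naive range, and the difference of 0.74 ± 0.42 on the log2 scale did not pass the limma test (adjusted p = 0.538). Dock2-deficient naive libraries were at 25.5, 5.44, 12.5, 20.9 and 11.0 and memory libraries at 38.9, 38.3, 46.4, 54.5 and 51.3. Here the groups did not overlap, with means of 15.0 ± 8.03 and 45.9 ± 7.24 (SD, n = 5 each). The log2 fold change of 1.70 ± 0.38 passed (adjusted p = 0.0117) and did so in all 10 fits that left out 1 library (adjusted p up to 0.0374). When libraries were scaled to an equal total without ribosomal RNA and mitochondrial genes, the value was 1.39 ± 0.39 and the call was lost (adjusted p = 0.0692), while the median of all genes moved by -0.31.

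Tigit (ENSMUSG00000071552; chromosome 16, 43648867 to 43664146, minus strand) encodes a receptor that competes with the stimulatory receptor CD226 for the ligands PVR and nectin-2. It was at 3.54, 3.65, 2.45 and 1.08 in wild-type naive and at 10.9, 14.3, 15.3 and 10.8 in wild-type memory libraries. Although the groups did not overlap and the means were 2.68 ± 1.20 and 12.8 ± 2.33 (SD, n = 4 each), the difference of 1.96 ± 0.64 on the log2 scale did not pass the limma test (adjusted p = 0.137). Dock2-deficient mice gave 5.14, 10.1, 4.64, 3.59 and 0 in naive libraries, and 21.3, 19.8, 5.33, 7.65 and 15.8 in memory libraries. Naive library 2, at 10.1, reached above memory libraries 3 and 4, and the difference of 1.58 ± 0.57 did not pass (adjusted p = 0.194); with weights per library it was 2.09 ± 0.59 and did (adjusted p = 0.0426). In memory cells of Dock2-deficient mice Cd226 fell to 159 ± 81.6, against 283.8 ± 40.5 in naive cells (SD, n = 5 each; -0.94 ± 0.25 on the log2 scale, adjusted p = 0.0412), a call kept only without naive library 4 or memory library 4 among 10 fits (adjusted p 0.0729 to 0.116 in the other 8). In wild type its log2 fold change was -0.34 ± 0.28 (adjusted p = 0.713).

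Entpd1 (ENSMUSG00000048120; chromosome 19, 40612366 to 40741602, plus strand) was at or near 0 in naive cells of both genotypes. Wild-type naive libraries held 0, 5.42, 0 and 2.26, at most 3 reads, and Dock2-deficient naive libraries 0.909, 0, 0, 5.61 and 2.99, at most 7 reads. In wild-type memory libraries it was at 14.9, 5.67, 10.3 and 0. Library 4 thus held no read of a gene that the other 3 memory libraries held, and the log2 difference, 1.46 ± 0.88, did not pass the limma test (adjusted p = 0.564), nor did that without library 4 (2.31, adjusted p = 0.207). Dock2-deficient memory libraries 1 to 5 were at 43.2, 18.5, 17.2, 58.8 and 17.7, from 10 to 69.1 expected reads. All 5 lay above all 13 other libraries, with libraries 1 and 4 at more than 2 times the level of the others. The log2 fold change between memory and naive cells was 3.68 ± 0.79 (adjusted p = 0.00853), with means of 31.1 ± 19.0 and 1.90 ± 2.41 (SD, n = 5 each). All 10 fits without 1 library kept the call (adjusted p up to 0.0287). A pair of processed pseudogenes, Gm16027 and Gm8783, lies inside the gene and shares no exon base with it.

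The other genes of the extracellular ATP and adenosine pathway mostly did not move with Entpd1. Of the 34 genes listed, 20 were tested, 2 rose in wild-type memory cells (Adora2a and Cd38) and 2 in Dock2-deficient memory cells (Entpd1 and Adora2a), and none fell. Over all genes tested, 1.88% and 1.77% rose in these comparisons. The median log2 fold changes of the list were 0.30 and 0.07, beside -0.02 and -0.01 over all genes. Adora2a, the adenosine receptor gene, was at 17.2 ± 6.44 and 88.3 ± 32.4 in wild-type naive and memory cells (SD, n = 4 each; log2 fold change 2.29 ± 0.41, limma adjusted p = 0.00159). In Dock2-deficient mice it went from 16.7 ± 12.01 to 62.0 ± 13.1 (SD, n = 5 each; 2.04 ± 0.36, adjusted p = 0.00155). Cd38, an enzyme that consumes NAD at the cell surface, was at 28.1 ± 6.99 in memory and 2.19 ± 3.29 in naive cells of wild type (SD, n = 4 each; 3.70 ± 0.59, adjusted p = 0.000422), and in Dock2-deficient mice its value of 1.72 ± 0.52 did not pass (adjusted p = 0.0944). Nt5e, which encodes the enzyme that follows CD39, was at 42.4, 45.2, 33.5 and 54.2 in wild-type naive and 72.1, 63.0, 55.4 and 30.6 in wild-type memory libraries. Naive libraries of Dock2-deficient mice held 20.0, 73.4, 27.1, 36.9 and 57.8, and their memory libraries 47.9, 49.4, 39.5, 40.0 and 48.7. Nt5e was taken for its role after its values were seen, as was Tnfrsf14 above. The ranges overlapped in both genotypes, and its log2 fold changes of 0.28 ± 0.34 and 0.21 ± 0.31 did not pass (adjusted p = 0.841 and 0.827).

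**Figure D2:**
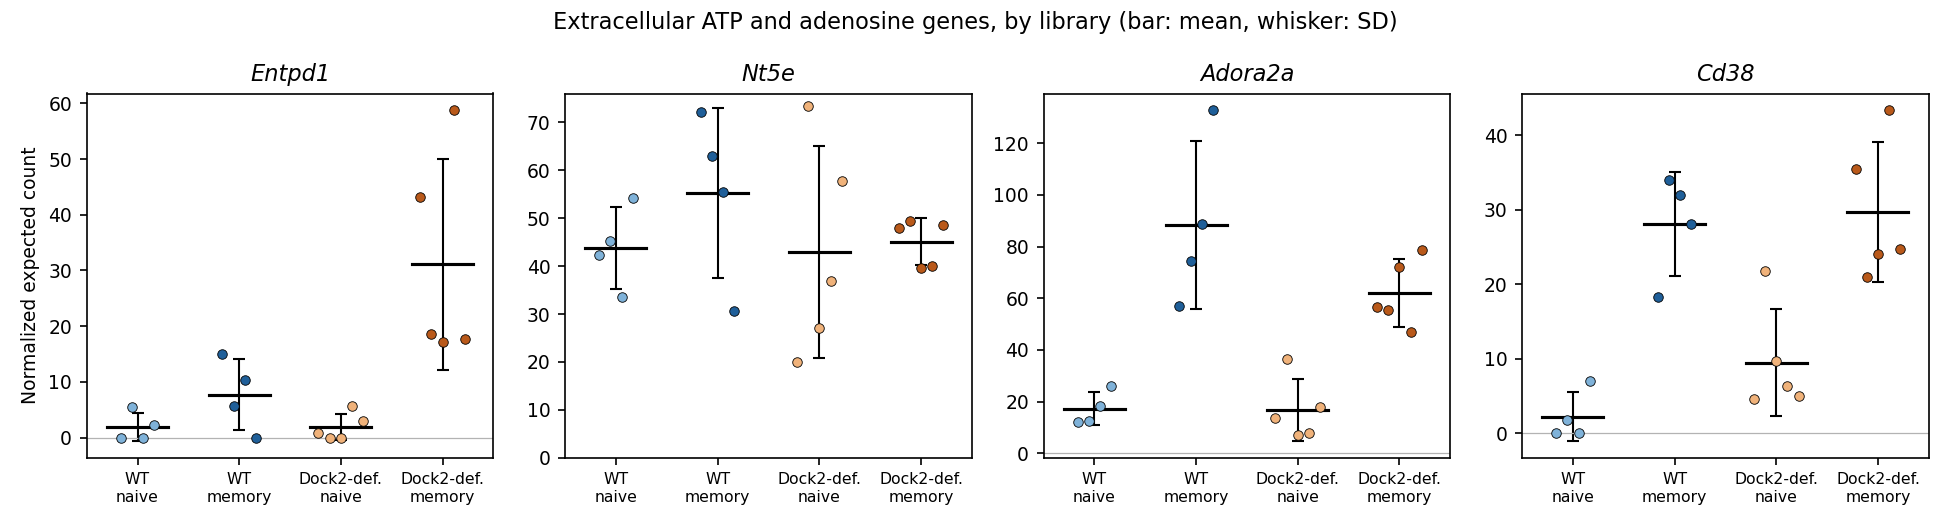
Normalized expected count (vertical axis, linear) of Entpd1, Nt5e, Adora2a and Cd38 in each library of the 4 groups; each point is a library, the bar the group mean and the whisker the SD. Adora2a is higher in memory than in naive cells of both genotypes, Nt5e overlaps between all groups, and Entpd1 is highest in the 5 Dock2-deficient memory libraries.

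Pdcd1, Lag3, Ctla4 and Havcr2, the receptors PD-1, LAG-3, CTLA-4 and TIM-3 that are targeted or studied most in tumour therapy, were low in all 4 groups, with no value above 9.62 apart from Ctla4 in wild-type memory library 4. Pdcd1 (ENSMUSG00000026285; chromosome 1, 94038305 to 94052553, minus strand), the receptor for PD-L1, was at 1.10, 0, 1.40 and 0 in wild-type naive and at 0.82899, 3.78, 1.29 and 0 in wild-type memory libraries. It was at 0, 7.47, 2.05, 4.81 and 1.99 in naive and at 1.78, 6.17, 0, 2.55 and 0.885 in memory libraries of Dock2-deficient mice. The highest value, in Dock2-deficient naive library 2, stood for 11 reads. Lag3 (ENSMUSG00000030124; chromosome 6, 124904361 to 124911705, minus strand), which binds MHC class II, was at 0.551, 1.81, 2.79 and 0 in wild-type naive and at 1.66, 3.82, 0 and 9.62 in wild-type memory libraries. Dock2-deficient mice gave 2.73, 0.679, 3.10, 0 and 0.996 in naive libraries, and 1.78, 1.23, 1.72, 1.70 and 1.77 in memory libraries. Memory groups overlapped with naive ones in both genotypes for both genes.

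Ctla4 (ENSMUSG00000026011; chromosome 1, 60887000 to 60915832, plus strand), which competes with CD28 for CD80 and CD86, was at 1.10, 9.04, 1.40 and 2.26 in wild-type naive and at 2.49, 5.67, 1.29 and 33.2 in wild-type memory libraries. Library 4 alone, at 33.2 from 38 reads, set the wild-type memory group apart, and no other library exceeded 9.04. Dock2-deficient mice gave 7.27, 8.15, 3.07, 0.802 and 0 in naive libraries, and 1.78, 0, 5.16, 2.55 and 0 in memory libraries. Havcr2 (ENSMUSG00000020399; chromosome 11, 46454935 to 46481255, plus strand) was listed at 0 in 17 of 18 libraries and at 1.70, about 1 read, in Dock2-deficient memory library 3. A 0 allows up to 3 reads, worth 1.54 to 5.42 depending on the library. With every gene above 0 kept in the fit, the smallest limma adjusted p of these 4 genes was 0.712 in the memory comparisons and 0.588 in the genotype comparisons.

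**Figure D3:**
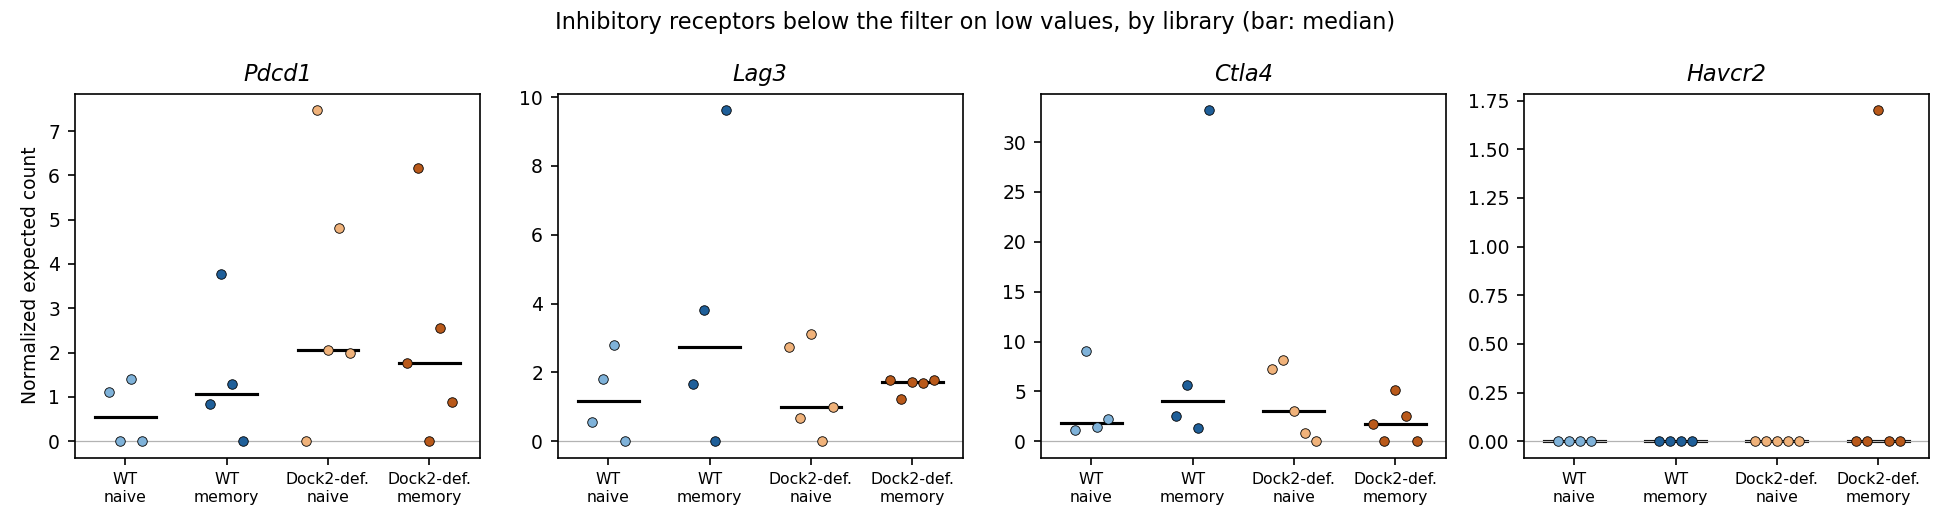
Normalized expected count (vertical axis, linear) of the 4 genes below the filter on low values; each point is a library and the bar is the group median. Wild-type memory library 4 is highest for Ctla4 (33.2) and Lag3 (9.62), and Havcr2 is above 0 in 1 library.

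Between genotypes, naive cells showed no called difference in the 6 tested genes. None passed limma, where 0.138% of all genes did, and the smallest p-value before adjustment was that of Cd101 (0.0146). Cd101 was at 2.56 to 6.97 in the 5 Dock2-deficient and 0.551 to 2.79 in the 4 wild-type libraries. The ranges met at 1 library on each side, and the log2 fold change was 1.20 ± 0.45 (adjusted p = 0.635). The intervals of the others were wide: that of Entpd1 ran from -1.71 to 1.78 around 0.03, and that of Cd160 from -0.82 to 0.70 around -0.06.

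Memory cells differed between genotypes in the ranges of 2 members, Cd160 and Entpd1, in opposite directions, and neither passed the test. None of the 6 tested members passed limma, where 0.053% of all genes did. Before adjustment the limma p-values of Cd160 and Entpd1 were 0.000804 and 0.0138. Every Dock2-deficient memory library lay below every wild-type one for Cd160 (22.3 to 79.9 against 111 to 126; 2.38% of all genes were lower without overlap). The log2 fold change was -1.43 ± 0.37 (95% interval -2.19 to -0.67, adjusted p = 0.189), and it passed only with weights per library (-1.77 ± 0.31, adjusted p = 0.0112). For Entpd1 every Dock2-deficient library lay above every wild-type one (17.2 to 58.8 against 0 to 14.9; 2.06% of all genes were higher without overlap), with a log2 fold change of 2.26 ± 0.84 (0.51 to 3.998, adjusted p = 0.257). Without wild-type memory library 4, where Entpd1 was at 0, it was 1.40 (adjusted p = 0.492). Entpd1 reached the filter value of 10 in every Dock2-deficient memory library and otherwise in only 2 wild-type memory libraries (14.9 and 10.3). It thus entered the test only through the group in which it was higher, and its share beside all genes is a description. The single Dock2-deficient memory library read as female was at 79.9 for Cd160, the highest of its group and still below all wild-type libraries, and at 43.2 for Entpd1. With a term for sex the log2 fold changes were -0.99 ± 0.49 for Cd160 and 2.48 ± 1.17 for Entpd1 (adjusted p = 0.789 and 0.787).

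The other 4 tested members overlapped between the genotypes in memory cells. Lair1 differed by 0.62 ± 0.40, Btla by -0.12 ± 0.35, Tigit by -0.03 ± 0.61 and Cd101 by -0.02 ± 0.45 on the log2 scale, and their 95% intervals each covered 0. The interval of Cd101 ran from -0.95 to 0.92 and that of Tigit from -1.29 to 1.23, so differences of about 2-fold in either direction were not resolved. Tested as the difference between the 2 memory responses, the values were -1.37 ± 0.52 for Cd160, -1.22 ± 0.64 for Cd101, 0.96 ± 0.57 for Lair1 and 2.22 ± 1.18 for Entpd1 (limma adjusted p = 0.819 for each). Without wild-type memory library 4 that of Entpd1 was 1.37. No member passed (0.0318% of all genes did), and the smallest limma p-value before adjustment was that of Cd160 (0.0150). The separate calls of Cd160 and Cd101 in wild type and of Lair1 and Entpd1 in Dock2-deficient mice were thus not shown to differ between the genotypes.

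**Figure D4:**
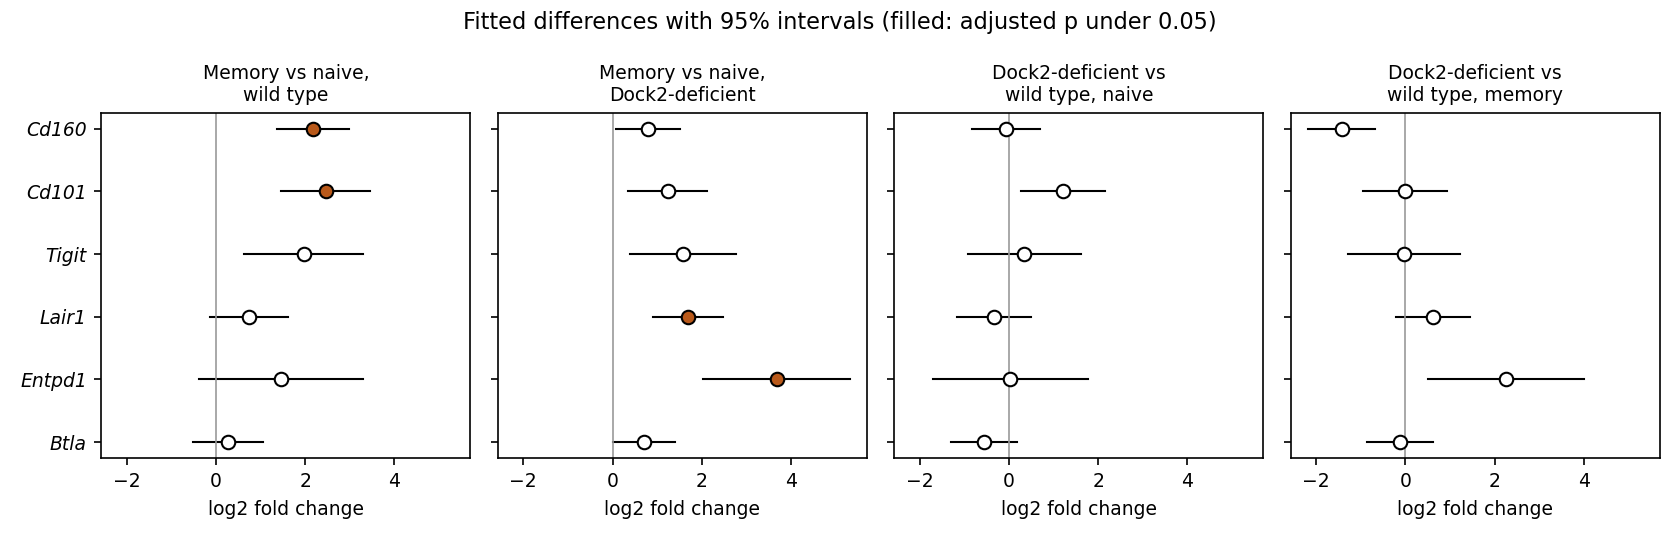
Fitted log2 fold change (horizontal axis) of the 6 tested genes in 4 comparisons, with the 95% interval as a line; filled points passed the adjusted threshold. Cd160 and Cd101 are filled for memory against naive in wild type, Lair1 and Entpd1 in Dock2-deficient mice, and no point is filled in the genotype comparisons.

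Set against each other per length of annotated exons, Btla and Cd160 were the most abundant of the 10 transcripts in every group. On this scale of normalized expected count per kilobase, wild-type naive cells held 23.8 ± 8.53 of Btla and 10.4 ± 4.71 of Cd160 (SD, n = 4), followed by Tigit (2.92 ± 1.30) and Lair1 (2.33 ± 0.559), which did not differ beyond their spread. In wild-type memory cells Cd160 (44.7 ± 2.40) stood above Btla (31.1 ± 19.7), although the Btla libraries spread across that gap. Tigit came next at 13.9 ± 2.53, and Ctla4 (4.58 ± 6.50), Cd101 (4.53 ± 2.10) and Lair1 (4.44 ± 2.49) could not be ordered. Dock2-deficient naive cells held 15.6 ± 3.37 of Btla, 9.49 ± 2.75 of Cd160 and 5.10 ± 3.94 of Tigit (SD, n = 5). Dock2-deficient memory cells held 26.9 ± 12.8 of Btla, 18.3 ± 9.51 of Cd160 and 15.2 ± 7.80 of Tigit, 3 neighbours whose spreads overlapped. Below them stood Lair1 (6.14 ± 0.969), Entpd1 (5.57 ± 3.41) and Cd101 (4.17 ± 0.709). Entpd1 was thus at the level of Lair1 and Cd101 in that group, and at 1.38 ± 1.14 per kilobase in wild-type memory cells.

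The genes around these receptors were read from lists of ligands, costimulatory and opposing molecules, other inhibitory molecules and downstream signalling molecules. Beside the counts of these lists, 1.88% of all 9437 genes rose in wild-type memory cells and 2.52% changed in either direction. In Dock2-deficient memory cells 1.77% rose and 2.82% changed. The lists were chosen with earlier results known, so their counts are a description. None of the 6 tested ligand genes of 19 listed passed limma in either memory comparison, and their median log2 fold changes were -0.05 and -0.38. Among 12 tested costimulatory and opposing molecules of 13 listed, 3 rose in wild-type memory cells (the receptor genes Cd28 and Klrk1 and the ligand gene Tnfsf14). The same 3 rose in Dock2-deficient memory cells, where Cd226 fell. Klrk1 encodes the activating receptor NKG2D and was at 140.2 ± 33.6 in memory and 17.4 ± 10.6 in naive cells of wild type (SD, n = 4 each; 3.17 ± 0.60 on the log2 scale, adjusted p = 0.00312). Tnfsf14, another ligand of HVEM, went from 3.71 ± 2.94 to 40.0 ± 16.9 in wild type (3.35 ± 0.65, adjusted p = 0.00362) and from 2.84 ± 1.73 to 31.8 ± 11.7 in Dock2-deficient mice (3.19 ± 0.58, adjusted p = 0.00183). Cd28, the receptor that CTLA-4 opposes, rose by 1.15 ± 0.29 in wild type (adjusted p = 0.0340), a call kept only without naive or memory library 3 among 8 fits (0.0528 to 0.141 in the other 6), and by 1.39 ± 0.26 in Dock2-deficient mice (adjusted p = 0.00267).

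Of 11 tested other inhibitory receptors and membrane adaptors among 22 listed, 2 rose in wild-type memory cells (Klrc1 and Lax1). In Dock2-deficient mice 3 rose (Klrc1, Klrd1 and Lax1) and Pecam1, an adhesion receptor with inhibitory motifs, fell. Klrc1 encodes NKG2A, whose partner chain CD94 is encoded by Klrd1; no read of it was found in the 4 naive libraries of wild type, where memory cells were at 93.2 ± 11.9 (SD, n = 4; limma adjusted p = 1.1e-08). In Dock2-deficient mice Klrc1 was at 0.701 ± 1.17 and 82.1 ± 38.8 (SD, n = 5 each; adjusted p = 1.9e-08). Lax1, a membrane adaptor that limits antigen receptor signals, went from 67.5 ± 2.71 to 137 ± 22.7 in wild type (0.99 ± 0.21, adjusted p = 0.0103) and from 40.7 ± 8.19 to 142 ± 30.9 in Dock2-deficient mice (1.77 ± 0.19, adjusted p = 3.9e-06). Klrd1 and Pecam1 changed by 1.62 ± 0.29 and -1.28 ± 0.22 in Dock2-deficient mice (adjusted p = 0.00182 and 0.00141).

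All 23 listed phosphatases, adaptors and other downstream signalling molecules were tested. Of these, 2 rose in wild-type memory cells (Sh2d1a and Sh2d2a) and 3 in Dock2-deficient ones (these and Ptpn2), and none fell. The list medians were 0.42 and 0.34. Sh2d1a, which encodes the adaptor SAP, rose by 1.78 ± 0.22 in Dock2-deficient mice (limma adjusted p = 2.0e-05). In wild type it rose by 0.92 ± 0.24 (adjusted p = 0.0459), a call kept only without naive or memory library 4 among 8 fits (0.108 to 0.160 in the others). Sh2d2a, an adaptor of Lck, rose by 1.01 ± 0.25 in wild type and 0.83 ± 0.22 in Dock2-deficient mice (adjusted p = 0.0281 and 0.0465). Its calls were kept in 4 of 8 fits in wild type (those without naive library 1, naive library 2, memory library 1 or memory library 3; 0.0842 to 0.128 in the others) and in 1 of 10 in Dock2-deficient mice (without naive library 2; 0.0519 to 0.120 in the others). Ptpn2, a phosphatase that restrains cytokine and antigen receptor signals, rose by 0.98 ± 0.26 in Dock2-deficient mice (adjusted p = 0.0473), a call kept in 3 of 10 fits (without naive library 4 or 5 or memory library 1; 0.0575 to 0.146 in the others).

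Of 17 tested transcription factors of exhaustion and residence among 24 listed, 3 rose in wild-type memory cells (Tbx21, Eomes and Id3) and 2 in Dock2-deficient ones (Tbx21 and Eomes). Over all genes tested, 1.88% and 1.77% rose in these comparisons. Tbx21 encodes T-bet; it was at 509 ± 122 in memory and 7.44 ± 7.24 in naive cells of wild type (SD, n = 4 each; 6.21 ± 0.40 on the log2 scale, limma adjusted p = 2.0e-09) and from 49.2 ± 19.7 to 369 ± 103 in Dock2-deficient mice (SD, n = 5 each; 2.92 ± 0.36, adjusted p = 2.0e-05). It was also the one gene of the 6 lists that passed in naive cells between genotypes (2.82 ± 0.38 higher in Dock2-deficient mice, adjusted p = 0.000646). Eomes rose by 2.89 ± 0.49 and 1.86 ± 0.43 (adjusted p = 0.000854 and 0.0176). Id3, an inhibitor of E proteins, rose by 1.13 ± 0.28 in wild type (adjusted p = 0.0314), a call kept only without naive library 2 or 4 among 8 fits (0.0538 to 0.118 in the others). Among the genes of these 6 lists, Tbx21 alone passed the test of the difference between the memory responses (-3.29 ± 0.54, adjusted p = 0.0287). That call was kept in 5 of 18 fits, those without wild-type naive or memory library 1, Dock2-deficient naive library 1 or 3 or Dock2-deficient memory library 4 (0.0505 to 0.0938 in the other 13).

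The profiles most like each called member over the 18 libraries were found by the root mean square difference of log2(value + 1), centred on the mean of each gene, as a description without a test. For Cd101 the nearest were Pglyrp1 (0.43), Myo1f (0.54) and Sypl (0.59). For Lair1 they were Rnf138 (0.53), Bcl2 (0.54) and Prf1 (0.54), and for Cd160 Efhd2 (0.62), H2-Ke6 (0.64) and Rasa2 (0.65). Entpd1 had no profile as near: its closest were Pls1 (0.88), Kcnj8 (1.07) and Agpat9 (1.10), in log2 units in which Entpd1 itself varied with an SD of 1.93. Of these 3, Pls1 and Agpat9 were listed at 0 in all 9 naive libraries and were at 12.3 ± 6.32 and 19.0 ± 5.56 in Dock2-deficient memory cells (SD, n = 5). In wild-type memory cells they were at 2.955 ± 2.25 and 1.997 ± 2.26 (SD, n = 4).

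Markers of other cell types moved with memory state and some with genotype, and their part in the member values was not tested. Beside the counts of called markers below, 1.88% of all genes rose in wild-type and 1.77% in Dock2-deficient memory cells. Counted in either direction, the shares were 2.52% and 2.82%. The 8 markers of NK cells and innate lymphocytes summed to between 8.38 and 16.3 in naive libraries of wild type and to between 153 and 205 in memory ones, and to 5.46 to 82.9 and 110.0 to 142 in Dock2-deficient ones. Of the 4 tested, 4 rose in wild-type memory cells (Klrb1c, Fcer1g, Klre1 and Eomes) and 3 in Dock2-deficient ones (Fcer1g, Klre1 and Eomes). Eomes and Klre1 are also known from memory CD8 T cells, and which cells held this RNA was not tested. Klrb1c, which encodes NK1.1, was at 15.7 to 27.1 in wild-type and 0 to 12.3 in Dock2-deficient memory libraries. Tyrobp was at 1.29 to 8.74 and 1.72 to 5.31, and Ncr1 at 0 to 5.80 and 0 to 3.40, in the same groups.

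The markers of CD4 and regulatory T cells without Ctla4 summed to between 21.7 and 45.0 in wild-type naive and between 166 and 283 in wild-type memory libraries, and to 31.6 to 137 and 141 to 374 in those of Dock2-deficient mice. Cxcr5 made up most of this in memory cells and rose in both genotypes, as 1 of 2 tested. Ikzf2, the other, was at 21.3, 4.94, 6.87, 50.2 and 10.6 in Dock2-deficient memory libraries 1 to 5, highest in libraries 4 and 1 as Entpd1 was. It was at 13.1 to 78.1 in wild-type memory libraries, where Entpd1 was lower. Whether Ikzf2 and Entpd1 RNA came from the same cells was not tested. Foxp3, Cd4 and Zbtb7b reached at most 3.15, 2.65 and 6.87 in the Dock2-deficient memory group.

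The 12 myeloid marker genes summed to 60.2 to 97.9 and 92.9 to 128 in wild-type naive and memory libraries and to 55.0 to 158 and 70.7 to 173 in Dock2-deficient ones. Fcer1g, 1 of 3 tested, rose in both genotypes (log2 fold changes 4.44 ± 0.69 and 2.97 ± 0.62, limma adjusted p = 0.000349 and 0.00670). Itgam was higher in Dock2-deficient memory than naive cells by 1.43 ± 0.61, which did not pass (adjusted p = 0.301), Lyz2 reached 1.72 in that memory group, and Adgre1 was at 0 in all 18 libraries. The 10 dendritic cell markers summed to 38.6 to 79.8 and 35.8 to 68.9 in wild type and to 49.1 to 116 and 62.1 to 113 in Dock2-deficient mice. Itgax, which encodes CD11c and is also known from activated CD8 T cells, was 1 of 2 tested and rose in the same comparison as Entpd1 (3.84 ± 0.74, adjusted p = 0.00336; in wild type 2.26 ± 0.83, adjusted p = 0.210). It was at 7.10, 24.5, 14.04, 68.0 and 14.2 in Dock2-deficient memory libraries 1 to 5, highest in library 4 as Entpd1 was, and at most 7.83 in any wild-type library. Itgax reached the filter value of 10 in Dock2-deficient memory libraries alone, so it was tested through the group in which it was called higher. Which cells held its RNA was not tested.

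The 12 B cell markers summed to 511 to 730 and 438 to 732 in wild-type naive and memory libraries. In Dock2-deficient ones the sums were 468 to 1693 and 585 to 899.6. Cd79a, Pax5 and Ebf1 were at 0 in all 5 Dock2-deficient memory libraries, and 5 of the 12 had a mean of at least 10 there. None of the 5 tested passed limma in either memory comparison. Cd22 had log2 fold changes of 2.84 in wild type and 2.49 in Dock2-deficient mice (adjusted p = 0.183 and 0.192). The 9 markers of T cells with a gamma delta receptor or of NKT cells summed to 106 to 167 in Dock2-deficient and to 166 to 284 in wild-type memory libraries. In naive libraries the sums were 75.8 to 233 and 103 to 208. Among the 5 tested, 4 rose in wild-type memory cells, and 1 rose (Cd163l1) and 2 fell (Trdc and Cxcr6) in Dock2-deficient ones. Trdc, the constant segment of the delta chain, was at 19.5 to 45.7 in Dock2-deficient naive libraries and at most 18.9 in any other. Between genotypes in naive cells, 2 of the 5 tested passed limma, beside 0.138% of all genes. These were Trdc (2.73 ± 0.37, adjusted p = 0.000646) and Cd163l1 (3.30 ± 0.35, adjusted p = 6.6e-05). Trdc also passed the test of the difference between the memory responses (-3.16 ± 0.52, adjusted p = 0.0287), beside 0.0318% of all genes. In these bulk libraries, a change in the share of cells that express a gene and a change in its RNA per cell cannot be told apart.

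With 10 genes and few libraries per group, a library is on average the highest or lowest of its group for several genes. The positions below are therefore a description only. Wild-type memory library 4 was the highest for Btla, Lag3 and Ctla4 and the lowest for Cd101, Entpd1 and Tigit, and wild-type naive library 2 was the highest for Lair1, Entpd1, Tigit, Btla and Ctla4. Dock2-deficient memory library 1 was the highest for Cd160, Cd101 and Tigit, and for Lag3 only by 1.78 against 1.77 in library 5, from 1 and 2 reads. Dock2-deficient memory library 4 was the highest for Lair1, Entpd1 and Btla, and its sum of CD4 and regulatory T cell markers without Ctla4, 374, was the highest of all libraries. Most of that sum was Cxcr5 (318) and Ikzf2 (50.2), while Cd4 was at 2.55 and Foxp3 and Zbtb7b were at 0. Dock2-deficient naive library 2 was the highest for Tigit, Pdcd1 and Ctla4 and the lowest for Cd160 and Lair1, with Entpd1 at 0. Its B cell markers summed to 1693 and its red cell and platelet markers to 228, against at most 957 and 35.2 in any other library. Leaving any 1 library out of its own comparison ended none of the 4 memory calls of Cd160, Cd101, Lair1 and Entpd1.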

How the data were processed

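Per the labels' protocols, a Qiagen RNAeasy kit was used for the RNA and Smartseq2, which keeps no strand information, for the libraries. The submitters' processing notes name bcl2fastq, FastQC, RSEM and build mm10 (versions and annotation: not given in the sources used here). As deposited, values are a signal per gene, RSEM expected counts that the authors divided by 1 factor per library. Between 59.5% and 69.3% of values above 0 were whole reads within 0.005, so no count model was run. The factor was inferred from the most frequent value above 0 in each library, taken as 1 read. All read counts given here rest on it.

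Values were tested as log2(value + 1), a scale that understates changes of low genes, with limma 3.58.1 in R 4.3.3. Genes entered if 4 or more libraries reached a value of 10 (9437 genes). The model held 1 mean per group over 18 libraries, with a variance trend (14 residual and 6.43 prior degrees of freedom). All adjusted p-values are two-sided Benjamini-Hochberg values over these genes. Errors beside log2 fold changes are SEs. Members and lists were chosen with earlier results of these data known. From each list up to 5 called genes per direction, with a mean of at least 10, were eligible to be named. Alternatives covered pseudocount, filter, scaling, variance trend, library weights, sex, replicate block, the groups fitted and left-out libraries. In a test on simulated data only genes with a mean of at least 50 were changed. There the fit called 48% to 63% of 2-fold changes and 99% to 100% of 4-fold changes. The test did not cover Cd101, Lair1, Entpd1 and Tigit, whose means over the 18 libraries were 8.62 to 28.2. Positions are from GENCODE M21 and promoters from RefSeq, GRCm38.p6. Plots were drawn with matplotlib 3.10.9 and tables prepared with pandas 2.3.3, scipy 1.17.1 and numpy 2.4.6 in Python 3.11.15.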

Additional observations from a re-analysis of the deposited data

Results flagged for a closer look

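Each member was examined for a single library far from the rest of its group, by the gap to its nearest neighbour over the range of the group, in 37 groups of values that were not all equal. The rule was set to flag about 1 in 20 such groups by chance, and 4 were found, all among the genes below the filter on low values. That rate need not hold for values of a few reads, where gaps move in steps of 1 read. The flags are therefore a description. Ctla4 was at 33.2 in wild-type memory library 4, from 38 reads, and the next library of that group was at 5.67. It was at 9.04 in wild-type naive library 2, from 5 reads, where the next was at 2.26. Lag3 was at 1.23 in Dock2-deficient memory library 2, below a next value of 1.70 in library 4, and these stood for 1 and 2 reads. Havcr2 was at 1.70 in Dock2-deficient memory library 3, again about 1 read, with the other 4 libraries at 0.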

How the results depend on the processing

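Of 663 recomputed log2 fold changes of the tested members, 630 kept their direction and side of the threshold. The wild-type memory call of Cd160 and the Dock2-deficient memory call of Entpd1 were kept under each alternative that tested them (adjusted p 0.000364 to 0.00834 and 0.00103 to 0.0298). With a filter at 25, which left 3 members tested, 1 was called in each memory comparison (Cd160, and Lair1 in Dock2-deficient mice). In wild type 1 was called with only the compared groups fitted (Cd160), and in Dock2-deficient mice 1 with total scaling (Entpd1), against 3 without the variance trend or with library weights. With those weights 1 was called between genotypes in memory cells (Cd160). The cause was not tested.

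Directions that turned belonged to differences that did not pass. Without the 2 libraries farthest from the rest (wild-type memory 4, Dock2-deficient memory 5), Btla was at -0.11 in wild type and 0.36 between genotypes in memory cells. With a term for sex, Cd160 was at 0.38 in naive cells, and Cd101 and Tigit at 0.11 and 0.57 in memory cells. With weights, Tigit was at -0.012 in naive cells and 0.010 in the interaction, and Btla at 0.12 in memory cells. With upper quartile scaling, Cd101 and Tigit were at 0.083 and 0.067 in memory cells, and with a pseudocount of 5 Tigit was at 0.0051. Leaving out 1 library gave Btla -0.11 to 0.50 in wild type. Between genotypes it gave Cd160 -0.32 to 0.13 and Entpd1 -0.36 to 0.56 in naive cells, and Cd101 -0.31 to 0.24, Tigit -0.22 to 0.24 and Btla -0.36 to 0.25 in memory cells.

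Libraries share replicate numbers across naive and memory cells, but same-numbered libraries did not deviate together (correlations of -0.02 to 0.13 in 4 wild-type and -0.25 to 0.30 in 5 Dock2-deficient pairs, above 0.1 in 1 and 2 of them). In 1 wild-type and 0 Dock2-deficient pairs each library correlated best with the other. With the replicate block 2 members were called in each memory comparison and 0 in the interaction, and with the block as an estimated correlation 0 in either genotype comparison. Depth limited Pdcd1, Lag3, Ctla4 and Havcr2, with at most 12 reads per library apart from 38 of Ctla4 in wild-type memory library 4.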
